A study of Mus musculus with 24 samples.

Results

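The translation initiation and elongation factors were taken as every protein-coding gene whose symbol starts with Eif and a digit, with Eef1 or with Eef2. Of the 55416 genes in the counts, 21928 were annotated as protein-coding and 68 of these met the rule, and they held 0.743% of all reads counted. The rule used no measured value. A further 10 processed pseudogenes and 1 lincRNA carry such symbols and were left out, and together they held 0.00955% of the counts of all genes with such symbols. RNA sequencing was done on skeletal muscle, named as gastrocnemius in the article, from wild-type mice whose strain is labelled C56BL6J, written C57BL/6J in the article. The mice were 8 weeks old when bought and were fasted for 4 hours before tissue was taken under ketamine and xylazine. Male and female mice were either sham, that is ambulatory, or lived for 8 weeks in a small mouse cage (SMC), an acrylic box with food and water at will that restricts spontaneous movement. There were 6 mice with 1 library each in every combination of sex and housing. Leaking water and crumbling food limit how well intake can be measured in this cage. A whole muscle was measured, so less RNA per cell and fewer cells of a type cannot be told apart.

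Protein synthesis starts when eIF2 brings the initiator tRNA to the small ribosomal subunit, where eIF1, eIF1A and the large eIF3 complex hold it ready, and when the cap-binding eIF4F complex of eIF4E, eIF4G and the helicase eIF4A loads the mRNA. Elongation then runs on eEF1A, which carries each aminoacyl-tRNA to the ribosome and is reloaded with GTP by the eEF1B complex, and on eEF2, which moves the ribosome along by a codon. Skeletal muscle is a tissue in which loading, feeding and disuse are known to alter protein synthesis, in large part through the 4E-binding proteins, which block eIF4E until they are phosphorylated, and through the kinases of eIF2 alpha and of eEF2. Such control acts mostly on the proteins, whereas the values here are transcript levels.

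Many mRNAs of the translation machinery open with a terminal pyrimidine tract, a C followed by a run of C and T, that places them under joint translational control, so the annotated starts were searched for it. Below are the bases from 10 before to 20 after a RefSeq start, on the gene's own strand, in build GRCm38.p6, with the tract in capitals where there is one. The Eif3f window (chr7:108934405-108934434, plus strand) held the longest tract, Eif2s3x (chrX:94212632-94212661, minus strand) and Eif2s3y (chrY:1010585-1010614, plus strand) are the X- and Y-linked genes of the same eIF2 subunit, Eef1a1 (chr9:78481705-78481734, minus strand) is a textbook example of the class, and Eef1b2 (chr1:63176821-63176850, plus strand) and Eif4a2 (chr16:23107458-23107487, plus strand) are the members that passed the test of SMC housing.
Eif3f: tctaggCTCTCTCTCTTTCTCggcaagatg
Eif2s3x: gagcattttCCTTTTCTCTCCgagcaagat
Eif2s3y: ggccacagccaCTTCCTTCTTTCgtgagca
Eef1a1: ctccgCCCTCTTCCCgagggtgggggagaa
Eef1b2: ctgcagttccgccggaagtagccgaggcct
Eif4a2: gaaaccccgtaggagcagggcggccgagga
A tract was counted where a C within 5 bases of an annotated start opened a run of at least 5 C or T on that strand. It was present for 14 of the 52 members with a start in the RefSeq table (26.9%), against 21.8% of 16500 protein-coding genes and 28 of 58 cytosolic ribosomal protein genes (48.3%). With a run of at least 7 bases it was present for 8 members (15.4%), against 7.73% of protein-coding genes and 39.7% of ribosomal protein genes. Among the protein-coding genes later tested the shares were 23.9% at 5 bases and 8.61% at 7. With at least 5 bases and a C within 10 bases of a start, it was present for 18 members (34.6%). Of protein-coding genes 35.2% had it, and of ribosomal protein genes 60.3%, so the members had no excess with that window. These are matches of letters at annotated starts, which can lie some bases from the starts used in muscle.

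Library totals ran from 23026627 to 36880413 reads assigned to genes, and the sex of all 24 libraries matched its label. The 5 myofibre markers summed to between 108435 and 288562 CPM (read counts scaled to a common library size with TMM factors). They summed to 112752 to 235745 CPM in male sham (median 172217) and 215291 to 266077 CPM in male SMC mice (median 230289). In females the medians were 211514 CPM in sham and 254719 CPM in SMC mice. The medians were thus higher with SMC in both sexes, and the male groups overlapped. Male sham replicate 4 and female sham replicate 7 stood apart, with 10 slow fibre genes summing to 72.4 and 62.4 CPM against 653 to 4344 CPM in the other 22 libraries.

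The elongation factor genes Eef1a2 and Eef2 had the highest levels of the class. Per kilobase of exon and averaged over all 24 mice, the level of Eef1a2, the eEF1A form of muscle and neurons, was 597 ± 69.7 CPM per kilobase (SD, n = 24). Eef2 followed at 329 ± 36.9, and Eef1a1, the eEF1A form of most other cells, came after Eif1 at 107 ± 18.7 CPM per kilobase. Among the initiation factors the level was highest for Eif1, a start-codon fidelity factor, at 130.1 ± 14.4, ahead of the scaffold genes Eif4g1 at 82.5 ± 10.6 and Eif4g2 at 62.4 ± 4.79 CPM per kilobase. Eif4ebp2 (46.2 ± 10.8) was the most abundant of the genes for 4E-binding proteins, and Eif4ebp3 (0.610 ± 0.190 CPM per kilobase) was near the bottom with Eif5a2, a second eIF5A gene, at 0.296 ± 0.0892. The oocyte cap-binding gene Eif4e1b, with 21 counts, and the methyltransferase gene Eef1akmt3, with 31 counts over all libraries, were too low to test, which left 66 members tested among 16408 genes.

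**Figure D1:**
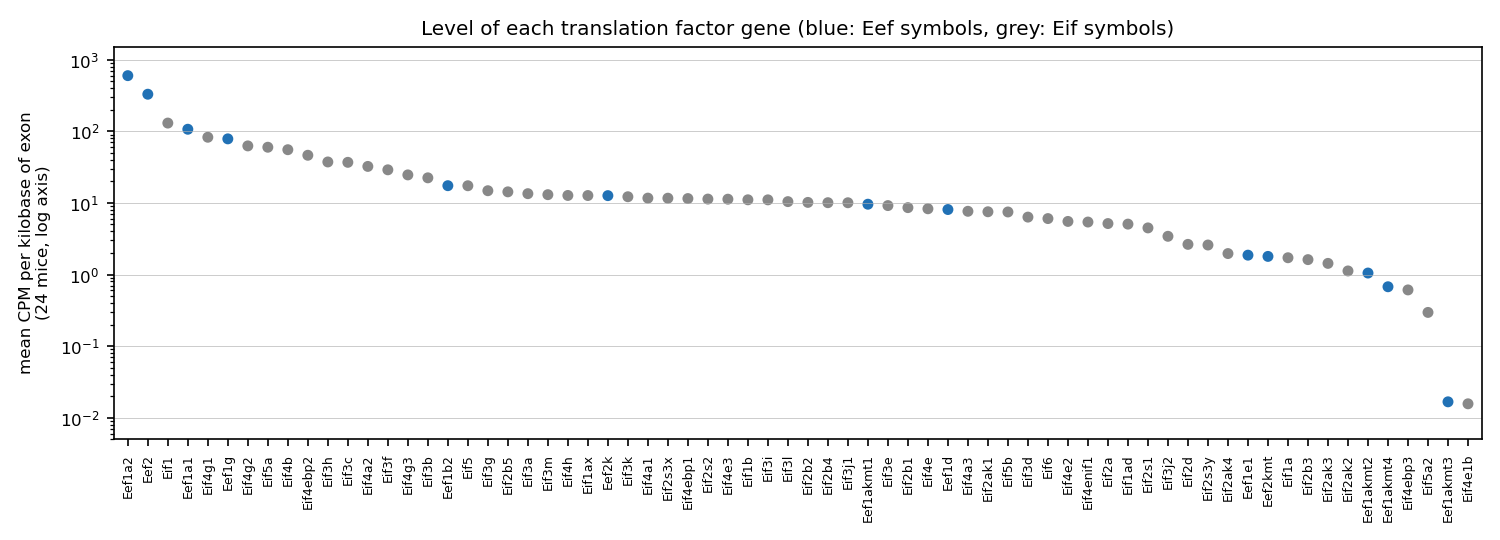
Mean level of each of the 68 genes over 24 mice, in CPM per kilobase of exon on a log axis, in descending order. Eef1a2 and Eef2 lie above all others, and Eef1akmt3 and Eif4e1b lie far below the rest.

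The question put to these genes was whether 8 weeks of SMC housing changed their transcripts in males or in females. Each contrast was fitted with edgeR's quasi-likelihood test over all 24 libraries, and adjusted p means the Benjamini-Hochberg value over the 16408 genes. In males none of the 66 members passed an adjusted p of 0.05, where 0.0% of all genes did. At an unadjusted p under 0.05, 11 members were lower with SMC, 16.7% of those tested against 5.59% of all genes, and 1 was higher, 1.52% against 5.41%. The 11 include Eif3j2, whose counts are uncertain, and Eif4ebp1, whose male difference rested on 1 mouse, as described below. The log2 fold change was negative for 48 of 66 members in males, 72.7% against 50.9% of all genes, with a median of -0.08.

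In the females the members moved much as all genes did. The single member past an adjusted p of 0.05 was Eef1b2, where 0.341% of all genes passed. At an unadjusted p under 0.05, 3 members were lower, 4.55% against 7.47% of all genes, and 1 was higher, 1.52% against 5.02%, and the log2 fold change was negative for 37 of 66, 56.1% against 52.4%, with a median of -0.01, the same as over all genes. When the effect was averaged over both sexes, Eef1b2 and Eif4a2 passed the adjusted threshold, 3.03% of members against 2.36% of genes. In that average 11 members were lower at an unadjusted p under 0.05, 16.7% against 9.65%, 2 were higher, 3.03% against 7.9%, and the log2 fold change was negative for 43 of 66, 65.2% against 52.4%.

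These medians were small and depended on scaling and on single libraries. Over mice the mean deviation of the members had an SD of 0.080, so the members of a mouse can shift together. The counts of negative values, here and below, are therefore not counts of independent genes. Without TMM factors the median log2 fold change of all genes moved to -0.13 in males and -0.15 in females, and the members' median relative to all genes stayed at -0.08 in males and was 0.01 in females. Without male sham replicate 4 and female sham replicate 7 the members lower and higher at an unadjusted p under 0.05 were 10 and 1 in males but 3 and 11 in females, and without female sham replicate 7 alone 8 members were higher in females. Shares of all genes in those fits are not given here, so these counts are not set against all genes. Without female sham replicate 7 the members' median in females turned to 0.031 (all genes -0.0083). Without the 2 libraries together the members' median over both sexes turned to 0.0012, while in males it stayed negative at -0.054.

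**Figure D2:**
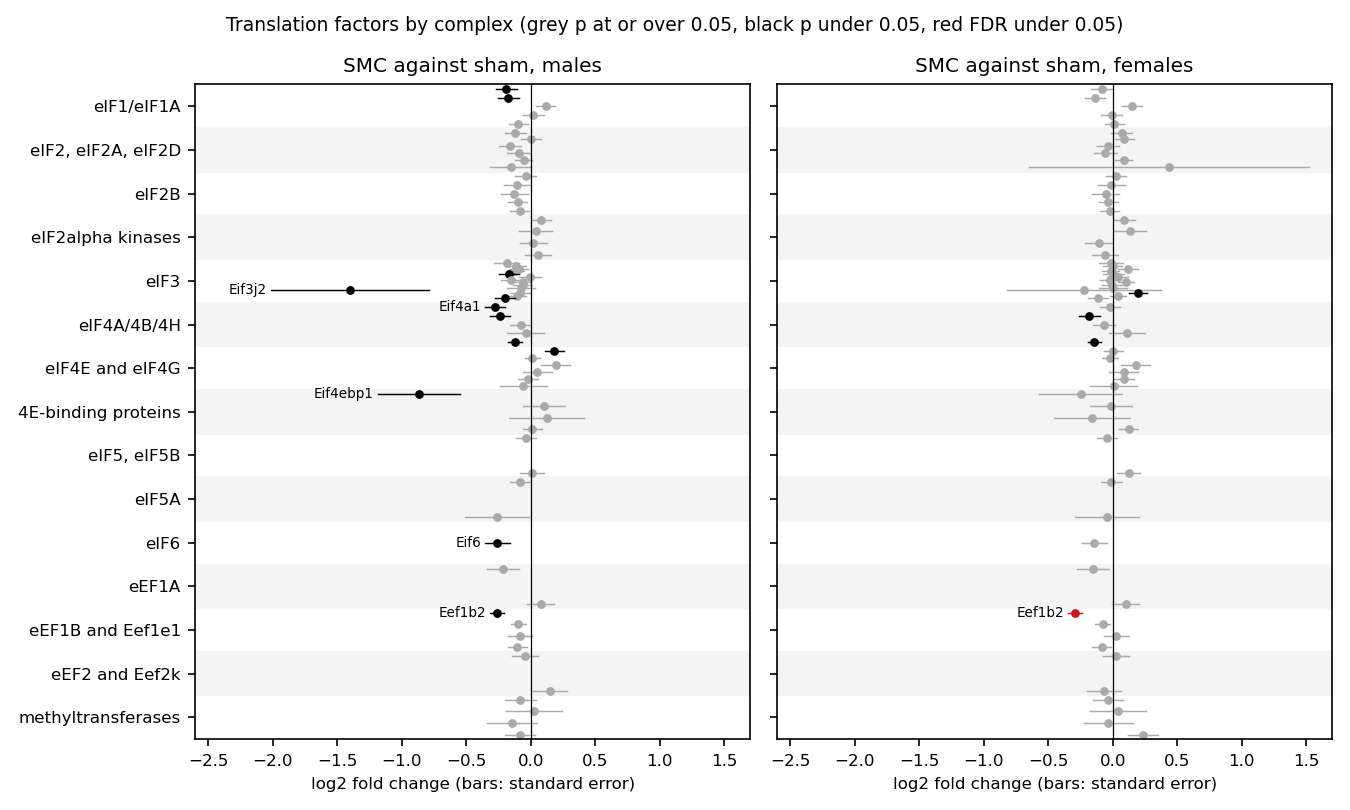
Log2 fold change (SMC against sham) with its standard error for each of the 66 tested genes, by complex, in males (left) and females (right), 6 mice a group. All 14 eIF3 points lie left of 0 in males and 7 of 14 do in females, and Eef1b2 is the point past an adjusted p of 0.05.

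The clearest change was in Eef1b2, the exchange subunit of the eEF1B complex that reloads eEF1A with GTP. Eef1b2 ranged from 43.4 to 50.3 CPM in male sham mice (median 48.4) and from 37.3 to 41.7 CPM in male SMC mice (median 39.2). In the females it ranged from 44.0 to 54.9 CPM in sham (median 48.6) and from 38.8 to 41.0 CPM in SMC (median 40.6). Every SMC mouse lay below every sham mouse of its sex. Eef1b2 was the only member whose groups did not overlap with SMC lower, in either sex, where this held for 0.311% of all genes in males and 0.634% in females, and no member had SMC wholly higher, where 0.591% and 0.396% of all genes did. The log2 fold change of Eef1b2 was -0.26 (SE 0.054, edgeR adjusted p = 0.0901) in males and -0.29 (SE 0.054, adjusted p = 0.0228) in females. Averaged over both sexes Eef1b2 fell by 0.27 on the log2 scale (SE 0.0382, edgeR adjusted p = 0.000981).

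The call for Eef1b2 in the average held in each of 6 other settings and without each of the 24 libraries, with adjusted p at most 0.00366. Within females its edgeR adjusted p reached 0.0671 when 1 library was left out. The female call was lost without female sham replicate 8 or female SMC replicate 19, 20, 22 or 23. Fitted on the 12 libraries of the sex alone, the edgeR adjusted p of Eef1b2 was 0.178 in males and 0.0948 in females.

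The other eEF1B genes had smaller differences that did not pass. Eef1d, the delta subunit, averaged 55.0 ± 4.39 CPM in male sham and 51.5 ± 2.87 in male SMC mice (SD, n = 6), and the log2 fold change over both sexes was -0.09 (edgeR adjusted p = 0.268). Eef1g, the gamma subunit, averaged 219 ± 23.98 CPM in male sham and 204 ± 8.15 in male SMC mice, with -0.10 over both sexes (edgeR adjusted p = 0.354). Both genes were lower on average in both sexes, with overlapping groups.

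The eEF1A genes went in opposite directions without passing the test. Eef1a1 ranged from 231 to 331 CPM in male sham mice (median 269.5), against 219 to 271 CPM in male SMC mice (median 229.6). In females Eef1a1 ranged from 200.5 to 409 CPM in sham mice (median 266), against 241 to 283 CPM in SMC mice (median 268). The spread of female sham mice thus covered all other groups, and the log2 fold change over both sexes was -0.19 (SE 0.0882, edgeR adjusted p = 0.273). Eef1a2 ranged from 1095 to 1455 CPM in male sham and from 1259 to 1404 in male SMC mice, with a log2 fold change of 0.08 in males (edgeR adjusted p = 0.849) and 0.10 in females (adjusted p = 0.763), both of which turned negative without TMM factors. Eef2 gave -0.05 in males and 0.03 in females, and its kinase gene Eef2k 0.15 and -0.07 (edgeR adjusted p from 0.732 to 0.949).

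In the cap-binding machinery 1 member passed the test, over both sexes, the helicase gene Eif4a2. Eif4a2, the eIF4A gene most expressed in muscle, ranged from 170.4 to 228 CPM in male sham mice (median 185), against 138 to 173 CPM in male SMC mice (median 164). In females it ranged from 154 to 199.7 CPM in sham mice (median 179), against 138 to 167 CPM in SMC mice (median 163). The medians were lower with SMC in both sexes and the groups overlapped. Eif4a2 fell by 0.21 on the log2 scale over both sexes (SE 0.057, edgeR adjusted p = 0.0493), with -0.24 in males (adjusted p = 0.270) and -0.18 in females (adjusted p = 0.340). This call lies at the threshold: it held without male sham replicate 3 or 5 or female sham replicate 8 or 11 and was lost without any other single library, with edgeR adjusted p of Eif4a2 up to 0.0794.

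Eif4h, which stimulates eIF4A, ranged from 70.7 to 78.1 CPM in male sham mice (median 76.3), against 63.4 to 74.5 CPM in male SMC mice (median 70.2). In the females it ranged from 68.9 to 75.4 CPM in sham mice (median 73.1), against 63.7 to 69.2 CPM in SMC mice (median 65.7). The female groups overlapped by 1 SMC mouse. Its log2 fold change over both sexes was -0.13 (SE 0.0362, edgeR adjusted p = 0.0506), which missed the threshold here and passed it in 5 of 6 other settings.

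Eif4a1, the eIF4A gene of most other tissues, ranged from 47.4 to 70.4 CPM in male sham mice (median 55.8), against 43.0 to 49.9 CPM in male SMC mice (median 47.8). In females it ranged from 41.5 to 51.7 CPM in sham and from 43.2 to 53.0 in SMC, with no visible shift. The log2 fold change of Eif4a1 was -0.28 in males (SE 0.0779, edgeR adjusted p = 0.180) and -0.02 in females (adjusted p = 0.950), and in males it passed, at 0.0420, only without male sham replicate 5. All 5 genes of eIF4A, Eif4b and Eif4h had negative log2 fold changes in males, where 50.9% of all genes did, and 3 of them were at an unadjusted p under 0.05, where 5.59% of all genes were lower. In females 4 of 5 were negative, against 52.4% of all genes, and 2 were at that threshold, against 7.47%. The count of negative values in males was 4 of 5 without male sham replicate 4.

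Of the cap-binding and scaffold genes none passed. Eif4e ranged from 38.2 to 51.5 CPM in male sham mice (median 48.7), against 47.4 to 58.5 CPM in male SMC mice (median 54.7), a log2 fold change of 0.18 (SE 0.0755, edgeR adjusted p = 0.356). It was the only member higher in males at an unadjusted p under 0.05, and in females its log2 fold change was 0.00. Eif4g1 had log2 fold changes of 0.05 in males and 0.08 in females and Eif4g3 of -0.06 and 0.01, all with edgeR adjusted p over 0.8. Both genes varied widely within groups, Eif4g3 from 180.2 to 504 CPM among male sham mice.

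Among the 4E-binding proteins the largest male difference rested on 1 mouse. Eif4ebp1 stood at 107.7 CPM in male sham replicate 4, against 20.8 to 25.9 CPM in the other 5 male sham mice and 16.8 to 25.9 CPM in male SMC mice. Its log2 fold change in males was -0.87 (SE 0.321, edgeR adjusted p = 0.301) with that mouse and -0.18 without it (adjusted p = 0.718). In females Eif4ebp1 ranged from 13.6 to 29.6 CPM in sham and from 14.6 to 25.2 in SMC (log2 fold change -0.25, edgeR adjusted p = 0.816). Eif4ebp2 averaged 286 ± 64.8 CPM in male sham and 307 ± 68.9 in male SMC mice (SD, n = 6) and 239 ± 63.8 and 237 ± 22.1 CPM in female sham and SMC mice, within the spread of each group.

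**Figure D3:**
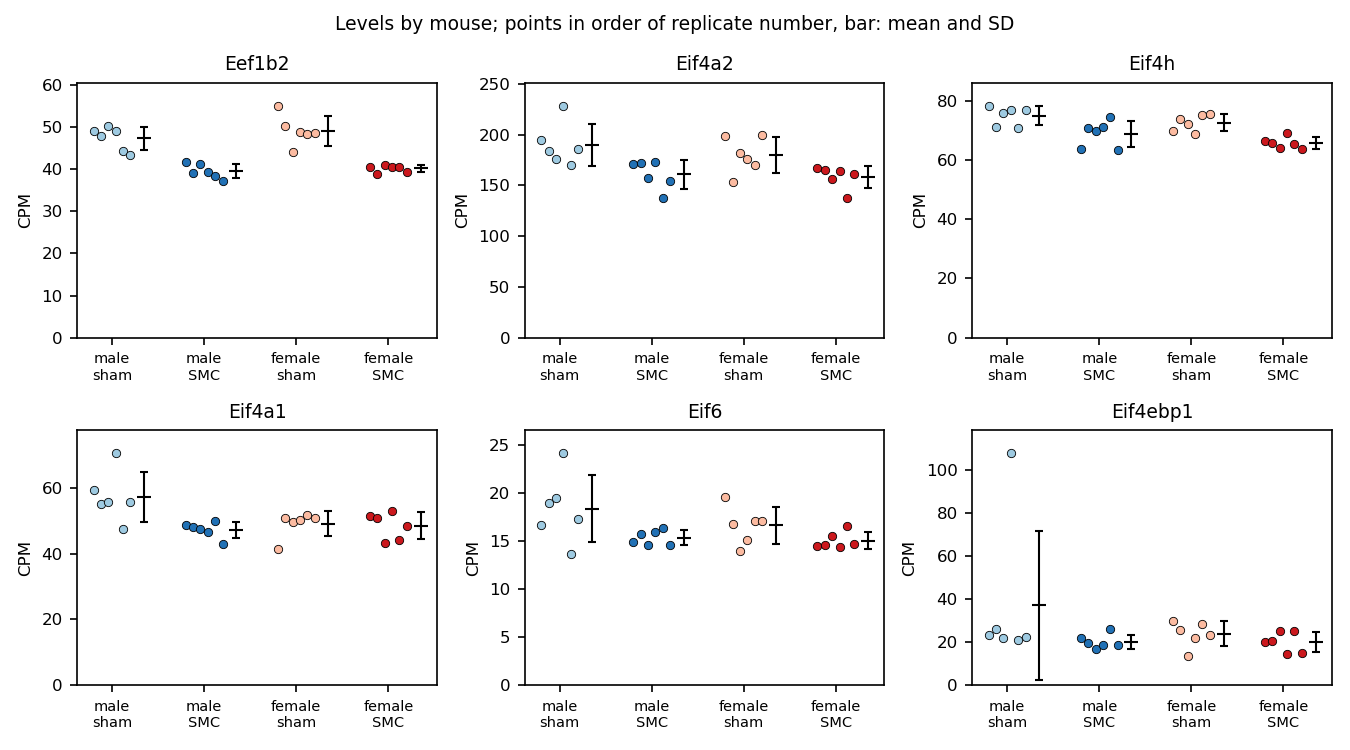
Level of 6 members in each mouse in CPM, 6 mice a group in order of replicate number, with the mean and SD beside the points. For Eef1b2 every SMC point lies below every sham point of its sex, and for Eif4ebp1 the male sham mean is raised by the point at 107.7 CPM.

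The eIF3 complex, the platform that holds the small subunit ready for mRNA, was described by its 14 genes. In males all 14 had negative log2 fold changes (median -0.11), where 50.9% of all genes did. Of these 3 were at an unadjusted p under 0.05, where 5.59% of all genes were lower, and the 3 include Eif3j2, whose counts are uncertain. In females 7 of 14 were negative (median 0.00), against 52.4% of all genes, and none of them was at that threshold, against 7.47%. The male count was 12 of 14 without male sham replicate 4 (median -0.07), and the female count was 2 of 14 without female sham replicate 7. Eif3a, the core scaffold subunit, stood at 177 CPM in male sham replicate 4, against 106.5 to 131 CPM in the other 5 male sham mice and 104 to 132 CPM in male SMC mice. Its log2 fold change in males was -0.19 with that mouse (edgeR adjusted p = 0.486) and -0.09 without it (adjusted p = 0.702). Eif3m ranged from 33.0 to 41.5 CPM in male sham mice (median 39.1), against 28.8 to 37.1 CPM in male SMC mice (median 33.8), a log2 fold change of -0.20 (SE 0.0783, edgeR adjusted p = 0.337), and it gave -0.11 in females (adjusted p = 0.603). For Eif3m the male median was lower with SMC and the groups overlapped.

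Eif3k, a peripheral subunit, was the member higher in females at an unadjusted p under 0.05. It ranged from 28.1 to 34.7 CPM in female sham mice (median 32.7), against 31.6 to 41.5 CPM in female SMC mice (median 36.4), and from 30.29 to 35.02 CPM in male sham and 27.2 to 34.5 in male SMC mice. The female groups were shifted upward with overlap and the male groups were not. Its log2 fold change was 0.20 in females (SE 0.0722, edgeR adjusted p = 0.228) and -0.08 in males (adjusted p = 0.744).

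Eif3j2, singled out after its values were seen, took separate ranges. It lay between 7.44 and 14.6 CPM in 17 libraries and between 1.01 and 1.45 CPM in 7. The 7 were male SMC replicates 15, 16, 17 and 18, female sham replicate 12 and female SMC replicates 22 and 24, and none was male sham. Its near-identical paralogue Eif3j1 lay between 37.4 and 81.0 CPM in all 24 libraries, so the low libraries of Eif3j2 did not stand out in Eif3j1. The fitted log2 fold change of Eif3j2 in males was -1.40 (SE 0.612, edgeR adjusted p = 0.389), and in females -0.22 (adjusted p = 0.921). How reads that map to both paralogues were counted is not given in the sources used here, so the counts of both are uncertain, and what sets the low range was not tested.

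**Figure D4:**
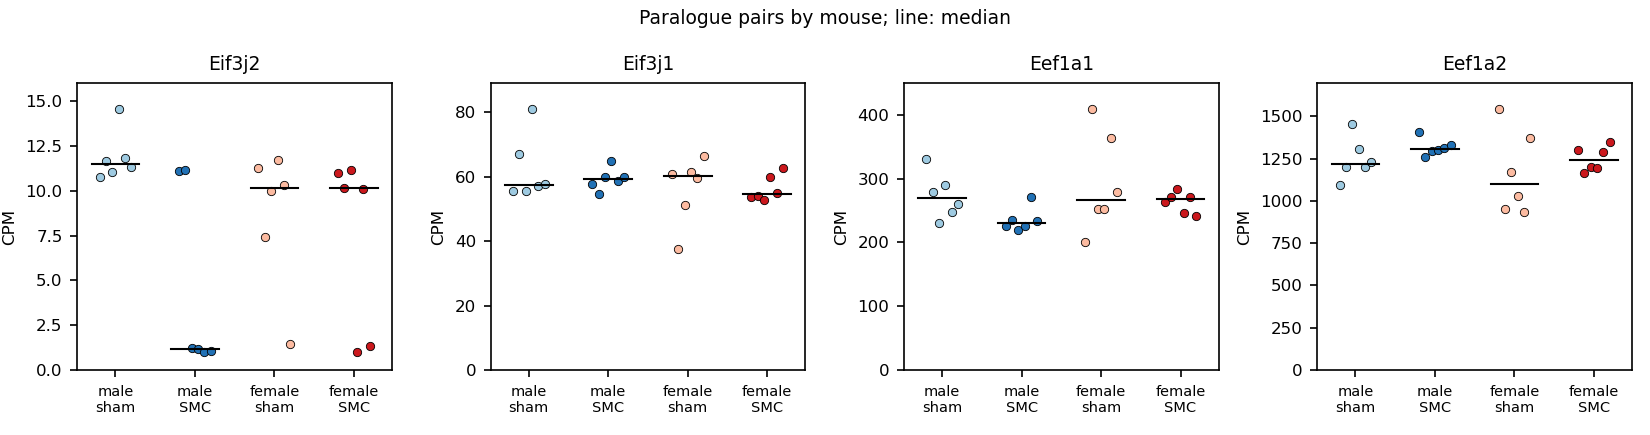
Levels in CPM of the paralogue pairs Eif3j2 and Eif3j1 and Eef1a1 and Eef1a2 in each mouse, 6 a group, with the group median as a line. Eif3j2 falls into a range of 7.44 to 14.6 CPM and one of 1.01 to 1.45 CPM, while Eif3j1 has no such gap.

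The factors that select the start codon and carry the initiator tRNA gave small values. Eif1a, an eIF1A gene, averaged 7.38 ± 0.743 CPM in male sham and 6.55 ± 0.541 in male SMC mice and 7.68 ± 0.573 and 6.98 ± 0.362 CPM in female sham and SMC mice (SD, n = 6), with a log2 fold change of -0.16 over both sexes (SE 0.0557, edgeR adjusted p = 0.133). Eif2s1, the alpha subunit of eIF2 whose phosphorylation shuts down initiation, gave -0.16 in males and -0.04 in females, and Eif2s2, the beta subunit, -0.09 and -0.06 (edgeR adjusted p from 0.490 to 0.908). All 5 genes of eIF2B, the exchange factor of eIF2, had negative log2 fold changes in males (-0.13 to -0.04), where 50.9% of all genes did. In females 4 of 5 were negative (-0.06 to 0.02), against 52.4% of all genes, and none was at an unadjusted p under 0.05 in either sex. The male count was 4 of 5 without male sham replicate 4, and the female count was 2 of 5 without female sham replicate 7.

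The 4 kinases of eIF2 alpha, which sense haem (Eif2ak1), double-stranded RNA (Eif2ak2), unfolded protein (Eif2ak3) and uncharged tRNA (Eif2ak4), had log2 fold changes from 0.02 to 0.08 in males and from -0.11 to 0.13 in females. None was at an unadjusted p under 0.05 in either sex, and all 4 male values turned negative without TMM factors. Eif2ak1 was the most abundant at 7.52 CPM per kilobase, against 1.12 to 1.96 for the others. It averaged 39.95 ± 3.68 CPM in male sham and 42.2 ± 2.18 in male SMC mice.

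Of the later factors, Eif6, which keeps the large ribosomal subunit from joining too early, ranged from 13.6 to 24.1 CPM in male sham mice (median 18.1), against 14.5 to 16.3 CPM in male SMC mice (median 15.3). Female values ran from 13.9 to 19.6 CPM in sham mice (median 16.9), against 14.4 to 16.6 CPM in SMC mice (median 14.6). The sham mice spread both above and around the SMC mice. The log2 fold change of Eif6 was -0.26 in males (edgeR adjusted p = 0.305), -0.14 in females (adjusted p = 0.592) and -0.20 over both sexes (SE 0.0684, adjusted p = 0.114). Eif5a, which helps ribosomes over stretches of proline and carries hypusine, averaged 145 ± 18.4 CPM in male sham and 137 ± 10.5 in male SMC mice, and 144 ± 14.3 and 143 ± 9.52 CPM in female sham and SMC mice, differences within the spread.

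Between the sexes the eIF2 gamma subunit stood out, which is encoded by Eif2s3x on X, a gene known to escape X inactivation, and by Eif2s3y on Y. In sham mice 2 members passed an adjusted p of 0.05, Eif2s3x and Eif2s3y, where 1.97% of all genes did. Eif2s3x ranged from 32.7 to 39.9 CPM in male sham mice (median 34.95), against 42.2 to 60.4 CPM in female sham mice (median 52.3). It was lower in every male, a non-overlap found for 0.524% of all genes, with a log2 difference of -0.56 (SE 0.0665, edgeR adjusted p = 1.39e-05). Eif2s3y had 314 to 949 counts in each male library and 0 or 1 in each female library, and such a non-overlap with males higher held for 0.609% of all genes.

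The summed level of both genes was similar in the sexes. Per kilobase of exon it was 14.7 ± 0.545 CPM in male sham and 13.7 ± 1.59 in female sham mice (SD, n = 6), a log2 difference of 0.11 (exact permutation p = 0.167, two-sided, 924 relabelings). In SMC mice it was 13.8 ± 1.19 CPM per kilobase in males and 14.6 ± 0.240 in females, a log2 difference of -0.08 (exact permutation p = 0.199). Male SMC replicates 13 and 16 had Eif2s3y at 12.4 and 12.8 CPM, against 19.9 to 25.7 CPM in the other 10 males. The Y-linked genes Ddx3y, at 68.7 and 66.2 CPM, and Kdm5d, at 17.1 and 18.2 CPM, lay within the range of the other males in these mice. SMC housing gave Eif2s3x a log2 fold change of -0.05 in males and 0.08 in females (edgeR adjusted p = 0.828 and 0.655).

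**Figure D5:**
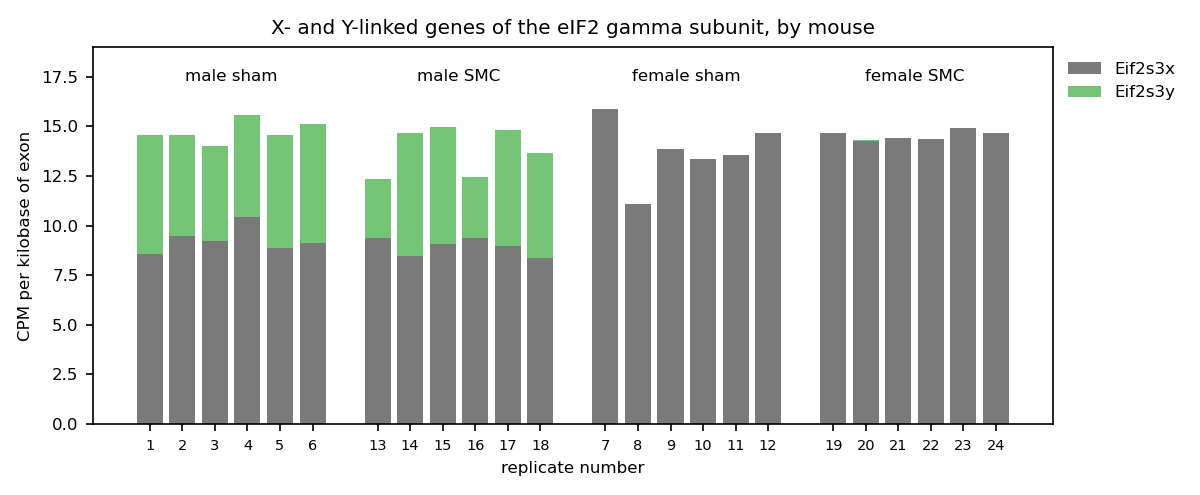
Level of Eif2s3x (grey) and Eif2s3y (green) in each mouse, stacked, in CPM per kilobase of exon. The stacks of males and the grey bars of females reach similar heights, and Eif2s3y is short in male SMC replicates 13 and 16.

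Apart from Eif2s3x and Eif2s3y, no member passed the adjusted threshold between the sexes in sham muscle. With these genes included, 20 of 66 log2 differences were negative, 30.3% against 50.4% of all genes. At an unadjusted p under 0.05 only Eif2s3x was lower in males, 1.52% of members against 9.23% of all genes. At that threshold 6 were higher, 9.09% against 6.23%: Eif1, Eif1ad, Eif2s3y, Eif3a, Eif3m and Eif4a1. Eif4a1 averaged 57.3 ± 7.55 CPM in male sham and 49.1 ± 3.80 in female sham mice (SD, n = 6), a log2 difference of 0.22 (edgeR adjusted p = 0.145).

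Whether SMC housing acted differently in males and females was tested by the interaction. None of the 66 members passed an adjusted p of 0.05, where 0.0% of all genes did, so a difference between the sexes was not shown for any of them. At an unadjusted p under 0.05 there were 2 members, 3.03% against 5.13% of all genes, both with the lower effect in males, where 2.13% of all genes were. These were Eif3k, with a difference of -0.28 (SE 0.102, edgeR adjusted p = 0.926), and Eif4a1, with -0.26 (SE 0.110, edgeR adjusted p = 0.946). The difference was negative for 54 of 66 members, 81.8% against 48.4% of all genes, with a median of -0.07, and for all 14 eIF3 genes.

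Switches between paralogues were read from the log2 ratio of the 2 CPM values in each mouse, for 5 pairs in each sex. None of the 10 differences passed after Benjamini-Hochberg adjustment over the 10 tests, whose smallest possible exact p was 0.00216. Eef1a2 over Eef1a1 went from 2.20 ± 0.301 in male sham to 2.49 ± 0.127 in male SMC mice (SD, n = 6; exact permutation p = 0.0476, adjusted 0.238). In females this ratio went from 2.01 ± 0.639 to 2.25 ± 0.148 (exact permutation p = 0.340, adjusted 0.501). Fibroblast markers summed to 521 to 1782 CPM in female sham and 608 to 948 in female SMC mice. In males they summed to 757 to 1389 CPM in sham and 848 to 1361 in SMC mice. Markers of other cells did not all move one way. From sham to SMC the median sum of endothelial markers went from 252 to 276 CPM in females and 290 to 337 in males. Schwann cell markers went from 64.3 to 81.4 and 56.8 to 71.4 CPM, macrophage markers from 81.8 to 75.7 and 78.8 to 75.2 CPM. The part of these cells in the ratio was not tested. For Eif4ebp2 over Eif4ebp1 the male difference of 0.66 (exact permutation p = 0.0368, adjusted 0.238) again held male sham replicate 4, at a ratio of 1.87 against 3.19 to 3.88 in the other 5. Eif4a2 over Eif4a1, Eif4g3 over Eif4g1 and Eif4e3 over Eif4e had differences from -0.16 to 0.19 (exact permutation p at least 0.139).

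Other genes of the translation apparatus were counted beside the factors. Of 79 cytosolic ribosomal protein genes, 78 had a negative log2 fold change in males, where 50.9% of all genes did. Of these 55 were at an unadjusted p under 0.05, where 5.59% of all genes were lower, and none passed the adjusted threshold, with a median of -0.18. In females 60 of 79 were negative, against 52.4% of all genes, 33 of them at an unadjusted p under 0.05, against 7.47%, and 6 were lower past an adjusted p of 0.05, where 0.341% of all genes passed in either direction, with a median of -0.09. Averaged over the sexes, 25 of the 79 were lower past an adjusted p of 0.05, where 2.36% of all genes passed in either direction, and none was higher. The count was 21 without male sham replicate 4 and female sham replicate 7. The median over both sexes was -0.15, against -0.03 for the initiation and elongation factors and -0.01 for all genes.

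Of 19 termination, recycling and helper genes, the helicase gene Ddx3x was lower over both sexes past the threshold (-0.29, SE 0.0751, edgeR adjusted p = 0.0382), and 12 of 19 had negative values. This call was lost in 12 of the 24 fits with 1 library left out, with edgeR adjusted p of Ddx3x up to 0.0691. Of 17 genes that control initiation, 2 passed over both sexes, both lower: Sesn1, an inhibitor of mTORC1 signalling, at -0.94 (SE 0.215, edgeR adjusted p = 0.0215) and Ddit4, another such inhibitor, at -2.39 (SE 0.546, edgeR adjusted p = 0.0217). In males 1 sham mouse lay far above its group for Ddit4 and 1 for Sesn1. Female sham mice were widely spread for Ddit4, at 123 ± 140 CPM (SD, n = 6). Ddit4 had medians of 19.8 CPM in male sham mice (9.17 to 165) against 9.84 with SMC (7.03 to 19.3), and in the females 73.96 CPM in sham (9.77 to 360.3) against 16.9 with SMC (5.69 to 26.3). The medians of Sesn1 were 26.1 CPM in male sham mice (19.6 to 109.5) against 18.9 with SMC (16.8 to 21.9), and in the females 51.03 CPM in sham (33.2 to 60.9) against 27.9 with SMC (19.9 to 35.4). Groups of both genes overlapped in each sex. In a fit chosen after these values were seen, without male sham replicate 4 and female sham replicate 7, Ddit4 gave -1.40 and no longer passed (edgeR adjusted p = 0.0612), and Sesn1 gave -0.60 and passed (adjusted p = 0.00922). Of 22 cytosolic tRNA synthetase complex genes, Aimp2 was higher over both sexes (0.30, SE 0.0797, edgeR adjusted p = 0.0480) and 15 had negative values. Aimp2 held in 7 of the 24 fits with 1 library left out (edgeR adjusted p up to 0.0877). None of 9 mitochondrial translation factors was at an unadjusted p under 0.05 in either sex or in the average.

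The start-site tract and nested small RNA genes were set beside the members' values. The 14 members with a tract of at least 5 bases had a median log2 fold change of -0.03 in males and 0.04 in females, against -0.08 and -0.01 for the 38 without it. With a tract of at least 7 bases the male order turned, at -0.09 for 8 members, 7 of them negative, against -0.08 for the 44 others, and the female medians were 0.01 and 0.00. With the window of 10 bases, the medians of the 18 members with the tract were 0.0022 in males and 0.04 in females. The 34 others had -0.09 and -0.01. Neither Eef1b2 nor Eif4a2 had the tract at the annotated start printed above. The starts used in muscle were not measured, so members without a match can still carry a tract.

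The annotation placed 14 snoRNA genes within 8 members, among them Eef1b2, Eif4a1 and Eif4a2, so that both members called over the sexes were snoRNA hosts. At an unadjusted p under 0.05, 3 of the 8 hosts and 8 of the 58 others were lower in males, where 5.59% of all genes were. In females 2 of 8 and 1 of 58 were lower, against 7.47% of all genes, and over both sexes 3 of 8 and 8 of 58, against 9.65%. The lower hosts were Eef1b2, Eif4a2 and, except in females, Eif4a1, so both called members are in each host count. The hosts' median log2 fold change was -0.04 in males, against -0.08 for the others, and -0.03 against -0.01 in females, so that in males the medians and the counts were ordered differently. Only 2 of the 14 small RNAs had enough counts to be tested, neither past an adjusted p of 0.05, and no link between a host and its snoRNAs was tested.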

How the data were processed

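The authors' deposited file held raw read counts per gene for 24 libraries, made from total RNA with a directional, rRNA-depleted kit. The submitters' processing notes name cutadapt 1.16, STAR 2.7.9a, featureCounts 1.6, DESeq2 1.34.0 and builds GRCm39 and mm39; the annotation release, the strand setting and the handling of reads that map to several places are not given in the sources used here. Groups and replicate numbers came from sample titles. Symbols, types and exon lengths came from GENCODE mouse release 21 by gene identifier, which named 52083 of 55416 genes, and no coordinates were converted. Genes without a symbol held 0.361% of counts. Counts were filtered with filterByExpr, which kept 16408 genes, scaled by TMM and fitted with a 4-group design in edgeR 4.0.16 (common biological coefficient of variation 0.206). Alternatives were DESeq2 1.42.0, limma 3.58.1 with voom quality weights, no TMM factors, no filter, at least 10 counts in every sample, the sex alone, and libraries left out; for complexes, ribosomal protein genes and other translation genes the fits with libraries left out were added after the data were seen. Paralogue ratios used log2 CPM with a prior count of 2 and a two-sided exact permutation test. On simulated counts with 200 changed genes, drawn from all genes tested, the step called 71% of genes changed by 1 log2 unit in males and 69% in females. Of those changed by 0.5 it called 37% and 34%, so over all genes small changes are often missed at this depth and number of mice. The share missed was not worked out for the members alone. The closest pair of libraries within a group differed by a chi-square of 10.3 per degree of freedom, so no library was treated as a second copy of another. The labels do not say whether libraries were prepared in batches.

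The 68 genes and the other gene lists were chosen with earlier results of these data known. The rule for members named with values took 25 core factors, every member past an adjusted p of 0.05 in any contrast and, in each SMC contrast, up to 6 members with the lowest unadjusted p under 0.05, which gave 29; Eif1, Eif1ad, Eif3j1, Eif3j2, Eif4e3, Eif4g2 and the members named for level or sequence only were named after their values were seen. Gcn1 and Mtrfr had no match in the file's symbols and were left out of their lists.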

Additional observations from a re-analysis of the deposited data

Results flagged for a closer look

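In 10 of 136 sets of 6 mice, made of the named members and paralogue ratios in each group, the highest or lowest mouse stood apart from the rest by Dixon's criterion, where chance gives about 6.8. The values are log2 CPM unless stated. Female SMC replicate 23 accounted for 4 of them: Eif2ak2 was low at 2.15 (others 2.65 to 2.83), Eif4a2 was low at 7.11 (others 7.29 to 7.38), Eif4ebp2 was high at 8.14 (others 7.81 to 7.89) and Eif5a was high at 7.34 (others 7.10 to 7.17). Male sham replicate 4 was high in Eif4ebp1 at 6.75 (others 4.38 to 4.70) and low in the log2 ratio of Eif4ebp2 over Eif4ebp1 at 1.87 (others 3.19 to 3.88). Female sham replicate 7 was low in Eif4a1 at 5.38 (others 5.63 to 5.70), and female sham replicate 8 was low in Eif2s1 at 4.15 (others 4.47 to 4.63). Male SMC replicate 17 was high in Eef1a1 at 8.08 (others 7.78 to 7.88), and female SMC replicate 20 was low in Eef1d at 5.52 (others 5.64 to 5.71). Male sham replicate 4 and female sham replicate 7 were also the 2 libraries low in slow fibre genes and had quality weights of 0.283 and 0.370 in limma, where the other 22 libraries ranged from 0.453 to 1.86.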

How the results depend on the processing

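No paired analysis was made because the labels give no pairing of mice. The article says that in some experiments sham and SMC mice were kept in pairs, without naming which experiments. With 6 mice a group, a log2 change of 0.5 was often below what the test could call. The fall of Eef1b2 over both sexes passed the adjusted threshold in every setting run. DESeq2 and limma with quality weights each called 1 member in males (0 in edgeR), and limma counted 2 members higher at an unadjusted p under 0.05 in males and 4 in females, where DESeq2 counted 2. Without a filter 0 members passed in females, 2 were higher at an unadjusted p under 0.05 and 1 passed over both sexes, and the 12 libraries of the sex alone gave 0 in females. A minimum of 10 counts removed Eif2s3y and left 1 member past the threshold between sham males and females. A tract of at least 7 bases was present in 8 members. Without TMM factors 35 members were lower and 0 higher at an unadjusted p under 0.05 in males (median -0.21), 12 and 0 in females (median -0.14), and 40 and 0 over both sexes, 22 past the adjusted threshold (median -0.16). In that fit all genes shifted too, with medians of -0.13 in males, -0.15 in females and -0.14 over both sexes. Without male sham replicate 4 and female sham replicate 7 together, 11 members were higher in females and 7 over both sexes. Shares of all genes called in these other fits are not given here, so the counts of members are not set against all genes.

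The members' median log2 fold change changed sign in females without a filter (0.00098), with limma (0.0060) and without male sham replicate 4 and female sham replicate 7 together (0.031), and over both sexes without these 2 libraries (0.0012). Among single genes and ratios, changes of sign other than those with a single library left out numbered 31, all of uncalled values. Without TMM factors they were in males Eef1a2 -0.047, Eif2ak1 -0.042, Eif2ak2 -0.10, Eif2ak3 -0.12, Eif2ak4 -0.062, Eif4ebp2 -0.0097 and Eif4g1 -0.062, and in females Eef1a2 -0.0083, Eef2 -0.10, Eif2ak1 -0.027, Eif2ak2 -0.013, Eif2s3x -0.035, Eif4e -0.12, Eif4g1 -0.024 and Eif4g3 -0.11. With limma they were in males Eif2ak3 -0.036 and Eif4g3 0.10, and in females Eif4e -0.0045 and Eif4ebp2 0.013. Without a filter they were in females Eif4ebp2 0.00046 and Eif5a 0.0018. Without male sham replicate 4 and female sham replicate 7 together they were in males Eef2 0.025, Eif2ak2 -0.012, Eif2ak3 -0.030, Eif4g3 0.20 and the ratio of Eif4g3 over Eif4g1 0.059, and in females Eef2k 0.061, Eif2s2 0.025, Eif3a 0.029, Eif4ebp2 0.13 and Eif5a 0.040. The causes were not tested.

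Leaving out each library in turn gave 0 to 2 members past the adjusted threshold in males (2 only without male sham replicate 5), 0 to 1 in females and 1 to 4 over both sexes (4 without male sham replicate 5). Members higher at an unadjusted p under 0.05 numbered 0 to 1 in males, 1 to 8 in females (8 without female sham replicate 7) and 1 to 3 over both sexes. Shares of all genes in these fits are not given here. The members' median ran from -0.032 to 0.031 in females (0.031 without female sham replicate 7), -0.12 to -0.054 in males and -0.049 to -0.022 over both sexes. A sign changed for 18 genes and ratios, whose log2 values ranged in males from -0.089 to 0.025 for Eef2, -0.012 to 0.087 for Eif2ak2, -0.030 to 0.053 for Eif2ak3, -0.020 to 0.20 for Eif4ebp2, -0.013 to 0.13 for Eif4g1, -0.16 to 0.20 for Eif4g3, -0.058 to 0.11 for the ratio of Eif4e3 over Eif4e and -0.10 to 0.059 for the ratio of Eif4g3 over Eif4g1. In females they ranged from -0.011 to 0.10 for Eef2, -0.13 to 0.061 for Eef2k, -0.097 to 0.0015 for Eif2s1, -0.11 to 0.025 for Eif2s2, -0.056 to 0.029 for Eif3a, -0.058 to 0.017 for Eif4a1, -0.029 to 0.042 for Eif4e, -0.12 to 0.13 for Eif4ebp2, -0.090 to 0.095 for Eif4g3 and -0.054 to 0.040 for Eif5a.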
